A study of Homo sapiens with 6 samples.

Results

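The route that breaks glucose down to pyruvate, the pentose phosphate pathway that branches from it, and the transcriptional response to low oxygen were followed through 40 genes in FUJIOKA cells, a human acute myeloid leukaemia (AML) cell line. The genes were picked by symbol from the 63236 genes of the deposited table, and comprised 21 genes of glycolysis and pyruvate use, 6 of the pentose phosphate pathway and 13 HIF genes, here HIF1A, a pair of its hydroxylases (EGLN1 and EGLN3) and genes known as targets of hypoxia-inducible factor (HIF). Of the 40, 39 had reads and 37 reached a mean of 10 normalised reads over the 6 libraries, the minimum for the 16129 genes tested. Cells had been transduced with a lentiviral vector (Tet-pLKO-puro) that makes an shRNA when doxycycline is given, either a scrambled control (shNEG, 3 libraries) or a SPINK2 shRNA (shSPINK2, 3 libraries), so both groups carry the vector and both were grown under normoxic conditions. The labels give 2 SPINK2 shRNAs without stating which of them a library carries, the methods name 1, and the time on doxycycline at RNA collection is not given in the sources used here. Nothing states that the libraries of a group came from separate cultures, so that p-values measure the spread between these libraries, which may be technical. The question put to the data was whether transcripts of sugar metabolism and of the hypoxia response differ once SPINK2 is silenced.

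As background, glycolysis starts with the phosphorylation of glucose by hexokinases, continues through the phosphofructokinase and aldolase steps to trioses, and ends with pyruvate kinase. Pyruvate is then either reduced to lactate by lactate dehydrogenase or burnt in mitochondria, a choice that pyruvate dehydrogenase kinases push towards lactate. The pentose phosphate pathway diverts glucose phosphate to make NADPH and ribose phosphate for nucleotides. Many glycolytic genes are at the same time textbook targets of HIF, whose alpha subunit HIF1A is marked for degradation by prolyl hydroxylases of the EGLN family when oxygen is present, so that its activity is set mostly at the protein level. Proliferating leukaemic blasts are known for a high glycolytic flux.

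Levels are given as normalised reads, that is whole reads recovered for each library from the deposited mean and divided by the size factor of the library, and the libraries of a group are called a, b and c since their numbers in the labels could not be carried over. Between 37709642 and 38893269 reads fell on genes in each library, and size factors lay between 0.985 and 1.033. SPINK2, the silenced gene, had 55.8, 63 and 53.1 normalised reads in shNEG and 6.8, 8.9 and 6.1 in shSPINK2 (log2 fold change -2.83, SE 0.26, adjusted p = 2.16e-11), and the groups did not overlap. Fold changes, their SE and adjusted p-values are from limma, fitted on log2 of normalised reads plus 1 and adjusted by the Benjamini-Hochberg method over all genes tested, and gene positions are those of GENCODE 44 on GRCh38. Among the lists of markers, 7 of the 8 myeloid genes were expressed well enough to be tested, including CEBPA, SPI1 and LYZ, whereas KIT stayed at 2 reads or fewer in every library, and the 2 erythroid genes summed to at most 1 normalised read per library. PTPRC, CD33 and LYZ were higher and CD34 and MPO lower in shSPINK2, while SPI1 and CEBPA were not called. Of the lymphoid and non-haematopoietic lists, NKG7 (4175 normalised reads in shNEG) and VIM (6774) were read most. All 4 proliferation genes (MKI67, TOP2A, PCNA and MCM2) were lower in shSPINK2, their summed level falling from 75700 to 78584 normalised reads in shNEG to 34703 to 38735. The summed level of the 5 monocyte genes went from 4487 to 4664 in shNEG to 5958 to 6305 in shSPINK2. Of them FCGR1A and ITGAM were higher and CR1 lower. CD300E stayed at 0, and CD14, with means of 4 in shNEG and 1.7 in shSPINK2, was not tested. The part of these shifts in the values below was not tested, and in bulk RNA fewer cells of a kind and less RNA per cell cannot be told apart. The comparison called 9454 of the 16129 genes tested (58.6%) at an adjusted p under 0.05, 28.8% as higher and 29.8% as lower in shSPINK2.

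Genes of all 3 groups moved in both directions. Of the 37 members tested, 13 were higher and 12 lower in shSPINK2, together 67.6% against 58.6% of all genes tested. The 58.6%, here and below, includes genes of low mean, which were called less often. With a mean of at least 50, 25 of 36 members and 8661 of 12592 genes were called. Among protein-coding genes it was 25 of 37 members and 8366 of 12442 genes. At these like filters the shares of members and of all genes were close. Glycolysis counted 6 higher and 7 lower genes of 21, the pentose phosphate pathway 2 and 2 of 6, and the HIF genes 5 and 3 of 10. The median log2 fold change was -0.04 for glycolysis, 0.014 for the pentose phosphate pathway and 0.06 for the HIF genes, beside 0.002 over all genes tested, and scaling by the upper quartile, which moved the last to 0.061, turned the glycolysis median to 0.021. Sizes were modest, with a median absolute log2 fold change of 0.16 over the members and 0.27 over all genes tested. The latter too includes genes of low mean, and sizes were not compared at a like mean. Only ALDOC upwards and BNIP3L downwards were called with an absolute log2 fold change over 1, the size that the study's own threshold asks for, which 4.58% of all genes tested passed. The libraries of the groups did not overlap for 24 of the 37 members, beside 62.5% of all genes tested.

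**Figure D1:**
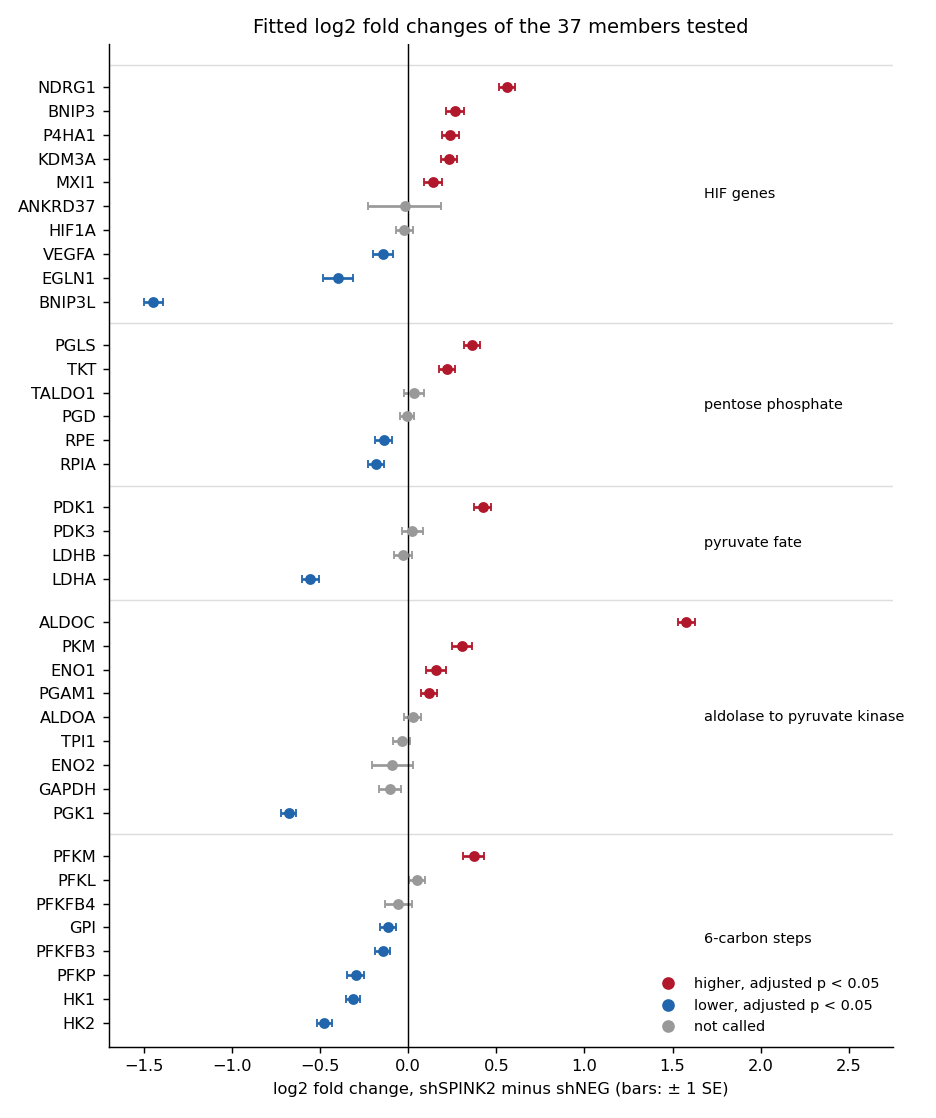
Fitted log2 fold change of each of the 37 members tested (x axis, shSPINK2 minus shNEG, limma on log2 of normalised reads plus 1), ordered within its group, with bars of ± 1 SE over 3 and 3 libraries and colour giving the call. ALDOC at 1.58 and BNIP3L at -1.45 stand at the ends, and the other members lie between -0.68 and 0.56.

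**Figure D2:**
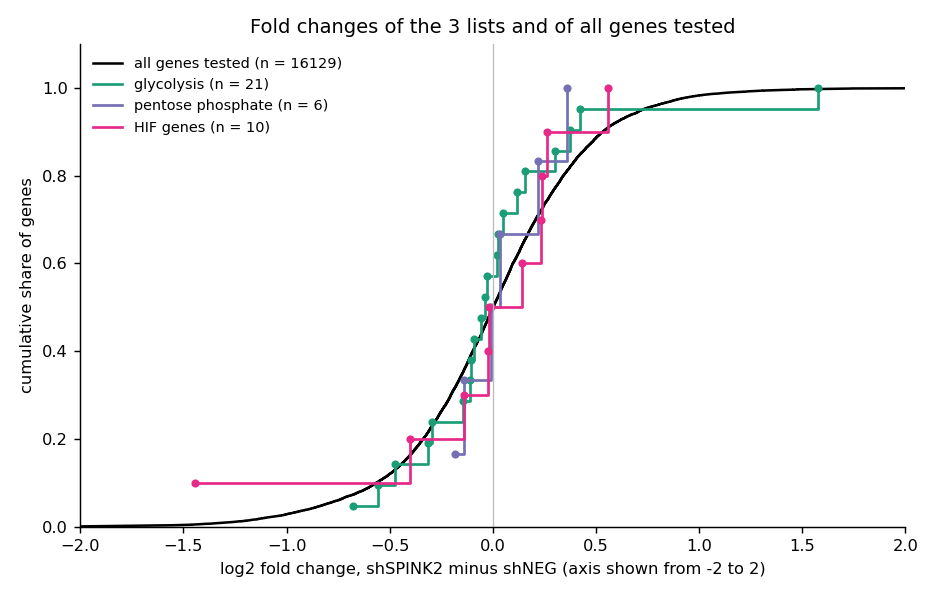
Cumulative share of genes (y axis) by log2 fold change (x axis, shSPINK2 minus shNEG) for all 16129 genes tested (black) and for the glycolysis, pentose phosphate and HIF genes (coloured steps, each point a gene). The steps of the 3 lists run on both sides of 0, as does the curve of all genes with its median at 0.002, and single genes at -1.45 and 1.58 make the long steps at the ends.

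Promoter sequences were set beside these directions, since HIF binds short words with the core ACGTG or GCGTG. RefSeq promoters of build GRCh38.p14, each 300 bases long, from 250 before a start site to 50 after it, were found for 37 of the 40 members (63 promoters, since several genes have more than 1 start). None was found for VEGFA, BNIP3L and NDRG1, all of them HIF genes. Either word was searched on both strands, and CACGTG, which holds ACGTG on each strand, counts as 2 matches. At least 1 match was present in 48.4% of all 35116 promoters, in 59.5% of those of the genes tested, and in 28 of 43 promoters of the glycolysis genes, 2 of 6 of the pentose phosphate genes and 11 of 14 of the HIF genes. Several matches were also present in promoters of other members, among them HK2, which was lower and whose 2 promoters hold 3 and 6. The 4 promoters below are examples with several matches, given in capitals, and their directions are not a count. They are of a pair of genes that were lower (PGK1 and LDHA, the first of its 2 promoters) and a pair that were higher (ALDOC and BNIP3).
PGK1 (chrX:78103998-78104297, plus strand): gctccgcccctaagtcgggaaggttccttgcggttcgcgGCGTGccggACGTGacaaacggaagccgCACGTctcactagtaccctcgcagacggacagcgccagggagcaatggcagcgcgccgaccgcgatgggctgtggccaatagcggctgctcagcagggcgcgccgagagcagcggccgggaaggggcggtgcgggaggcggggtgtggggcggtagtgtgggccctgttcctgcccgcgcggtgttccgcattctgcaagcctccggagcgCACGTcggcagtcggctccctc
LDHA (chr11:18394313-18394612, plus strand): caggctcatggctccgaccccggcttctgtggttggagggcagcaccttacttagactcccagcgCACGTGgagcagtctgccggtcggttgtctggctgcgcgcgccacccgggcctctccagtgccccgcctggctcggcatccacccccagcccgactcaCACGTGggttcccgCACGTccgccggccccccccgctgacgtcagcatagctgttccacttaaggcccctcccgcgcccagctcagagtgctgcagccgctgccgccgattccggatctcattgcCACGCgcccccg
ALDOC (chr17:28576846-28577145, minus strand): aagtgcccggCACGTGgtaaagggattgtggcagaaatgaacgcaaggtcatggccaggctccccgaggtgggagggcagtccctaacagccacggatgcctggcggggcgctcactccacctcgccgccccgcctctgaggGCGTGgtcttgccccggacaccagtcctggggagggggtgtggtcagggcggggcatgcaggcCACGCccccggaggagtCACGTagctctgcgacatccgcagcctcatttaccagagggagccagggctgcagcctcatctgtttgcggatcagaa
BNIP3 (chr10:131981874-131982173, minus strand): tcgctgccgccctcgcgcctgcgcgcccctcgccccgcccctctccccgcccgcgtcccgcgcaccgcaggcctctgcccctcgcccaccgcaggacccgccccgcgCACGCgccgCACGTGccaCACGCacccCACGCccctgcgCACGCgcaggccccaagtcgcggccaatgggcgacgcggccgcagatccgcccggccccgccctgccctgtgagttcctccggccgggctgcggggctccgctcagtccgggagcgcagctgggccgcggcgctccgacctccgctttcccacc
They hold 4, 6, 5 and 6 matches, beside log2 fold changes of -0.68, -0.56, 1.58 and 0.26. A match describes the letters and is not a binding site.

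The shRNAs themselves offer a second set of letters. The labels give these targets in SPINK2, of which shRNA2 holds the 7-base word in capitals. The only shRNA that the methods name is shRNA1, which does not hold the word. The word was picked because it went with lower transcripts in earlier results of these same data. The medians over all genes and the directions of the members given here therefore describe that choice and support nothing.
shRNA1: tcagggaaggtggtcataata
shRNA2: cgccaaactGCTCTCAgtata
The word was looked for in the canonical transcripts of GENCODE 44, over the 11129 genes tested with a mean of at least 50 normalised reads and a 3′ UTR over 20 bases. Of these 10.5% held it in the 3′ UTR, their log2 fold changes having a median of -0.20, and 11.9% in the coding sequence, with a median of -0.11, against 0.015 for genes with neither. Among the 36 members in that set, 4 held it in the 3′ UTR, namely BNIP3L and EGLN1, which were lower, PDK1, which was higher, and PFKFB4, which was not called. The coding sequence held it in 9, of which HK2, GPI, PGK1 and BNIP3L were lower, ALDOC, BNIP3 and KDM3A higher, and ENO2 and TALDO1 not called. BNIP3L held it in both places and PGK1 held it in its coding sequence at 2 sites. Sites of HK2, PGK1, PDK1 and EGLN1 are given as examples, on the transcript strand with the word in capitals. Those of GPI, ALDOC, BNIP3, BNIP3L and KDM3A, which were also called, are not shown.
HK2, coding sequence (chr2:74889415-74889443, plus strand): gtgggctggacGCTCTCAaagtgacagtg
PGK1, coding sequence (chrX:78124986-78125014, plus strand): ggggaaccaaaGCTCTCAtggatgaggtg
PGK1, coding sequence (chrX:78125802-78125830, plus strand): ctggggtggatGCTCTCAgcaatatttag
PDK1, 3′ UTR (chr2:172605015-172605043, plus strand): acattcctgagGCTCTCAgagaaaacttt
PDK1, 3′ UTR (chr2:172607035-172607063, plus strand): tgtctaaattaGCTCTCAggcatattgtc
EGLN1, 3′ UTR (chr1:231363796-231363824, minus strand): attatgaaagaGCTCTCAagttgcttgta
Over the 24 members without the word in either place, 9 were higher, 7 lower and 8 not called. Beside these calls, and those of the members with the word, 28.8% of all genes tested were higher and 29.8% lower. Those shares include genes of low mean. Of the 12592 genes with a mean of at least 50, 4206 were higher and 4455 lower. Whether the shRNA acts on any of these transcripts was not tested.

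At the entry into glycolysis both hexokinases among the members, HK1 and HK2, were lower. Of the 8 genes of sugar phosphorylation and the following steps on hexoses, 5 were lower and 1 was higher in shSPINK2, beside 29.8% lower and 28.8% higher of all genes tested, the median log2 fold change being -0.13. With upper-quartile scaling 3 were lower and 2 higher, as GPI and PFKFB3 were no longer called and PFKL was called as higher. HK2, the inducible hexokinase that binds mitochondria (chr2:74834127-74893359, plus strand), had 6298, 6210.0 and 6132 normalised reads in the shNEG and 4310.0, 4520.3 and 4575 in the shSPINK2 libraries. The groups were far apart relative to their spread, and HK2 fell by 28.1% (log2 fold change -0.48, SE 0.04, adjusted p = 1.66e-11). HK1, the hexokinase of most tissues, had 7268, 6962 and 6871 reads in shNEG and 5609, 5662 and 5705 in shSPINK2, again with no overlap, and fell by 19.5% (log2 fold change -0.31, SE 0.04, adjusted p = 1.02e-07). GPI, which turns glucose phosphate into fructose phosphate, fell by 7.6% (28414 ± 829 in shNEG and 26268 ± 212 in shSPINK2, SD, n = 3 and 3, adjusted p = 0.0329), and this call was lost when any of the shNEG libraries was left out. A further row of the table with the symbol GPI had a mean of 0.

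The phosphofructokinase subunits, which assemble into the tetramer that commits sugar to glycolysis, parted. PFKP, the platelet type, had 3958, 3916 and 3856 normalised reads in shNEG and 3214, 2935 and 3412 in shSPINK2 and fell by 18.5% (log2 fold change -0.30, SE 0.05, adjusted p = 2.64e-06). PFKM, the muscle type and the least read of them, had 761, 758 and 674 in shNEG and 943, 921 and 970.1 in shSPINK2, 29.3% higher (log2 fold change 0.37, SE 0.06, adjusted p = 2.41e-06), so that both subunits separated the groups completely in opposite directions. PFKL, the liver type, overlapped between groups with means of 7319 ± 98.2 in shNEG and 7579 ± 363 in shSPINK2 (SD, n = 3 and 3, adjusted p = 0.345). Of the bifunctional enzymes that make and remove a fructose bisphosphate activating phosphofructokinase, PFKFB3 fell by 9.5% (log2 fold change -0.14, SE 0.04, adjusted p = 0.00546), and PFKFB4 had 375 ± 20.7 in shNEG and 360.3 ± 20.7 in shSPINK2 (adjusted p = 0.551) with overlapping libraries.

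In the stretch from aldolase to pyruvate kinase, 4 of 9 genes were higher and 1 was lower, together 55.6% and near the 58.6% of all genes tested. ALDOC, the aldolase best known from brain (chr17:28573115-28576948, minus strand), had 1176, 1142 and 1249 normalised reads in shNEG and 3431, 3625 and 3589 in shSPINK2. Every shSPINK2 library held more reads than every shNEG library, and ALDOC was 2.98-fold higher (log2 fold change 1.58, SE 0.05, adjusted p = 1.85e-23), the steepest rise among the members. ALDOA, the main aldolase of these cells, stayed within the spread of its libraries (55179 ± 1828 in shNEG and 56112 ± 259 in shSPINK2, SD, n = 3 and 3, adjusted p = 0.694).

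PGK1, phosphoglycerate kinase, the first step of glycolysis that yields ATP (chrX:77910739-78129295, plus strand), moved the other way, with 30218, 30015 and 29996 normalised reads in shNEG and 18556, 18874 and 18938 in shSPINK2. The libraries within each group differed little, and PGK1 fell by 37.5% (log2 fold change -0.68, SE 0.04, adjusted p = 5.23e-15). The genes next to it in the pathway upstream were not called. TPI1, triosephosphate isomerase, had 39436 ± 392 in shNEG and 38415 ± 1345 in shSPINK2 (adjusted p = 0.512), and GAPDH, the dehydrogenase often used to normalise PCR, had 164280.3, 147230.0 and 153678 in shNEG and 136774, 141599 and 154227 in shSPINK2, values that overlap (log2 fold change -0.10, SE 0.06, adjusted p = 0.153). GAPDH was called as lower (log2 fold change -0.155, adjusted p = 0.0234) when shSPINK2 library c was left out.

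The last steps held 3 higher genes. PKM, pyruvate kinase, rose by 23.4% from 108598, 104119.9 and 105436 normalised reads in shNEG to 128007, 130618 and 133873 in shSPINK2 (log2 fold change 0.30, SE 0.06, adjusted p = 2.2e-05), without overlap. ENO1, the ubiquitous enolase, was 11.5% higher (log2 fold change 0.16, SE 0.06, adjusted p = 0.0147) and PGAM1, phosphoglycerate mutase, 8.5% higher (log2 fold change 0.12, SE 0.04, adjusted p = 0.0237), and both calls depended on the libraries, since ENO1 was no longer called without shNEG library b or c, nor PGAM1 without shNEG library b or shSPINK2 library c. ENO2, the neuronal enolase, was read little (148 ± 6.2 in shNEG and 140.3 ± 23.1 in shSPINK2, adjusted p = 0.531).

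At the branch point of pyruvate, LDHA and PDK1 parted. LDHA, the lactate dehydrogenase subunit that favours lactate formation (chr11:18394560-18408425, plus strand), had 34917, 35585 and 34988 normalised reads in shNEG and 22805, 25166 and 23844 in shSPINK2 and fell by 31.9% (log2 fold change -0.56, SE 0.05, adjusted p = 4.5e-12). LDHB, the subunit that favours the use of lactate, had 33757, 36304 and 32938 in shNEG and 32478, 35894 and 32566 in shSPINK2, groups that overlap (log2 fold change -0.03, SE 0.05, adjusted p = 0.642). Per length of exon LDHB was above LDHA in both groups, at 304 against 154 RPKM (reads scaled to library total and exon length) in shNEG and 296 against 104 RPKM in shSPINK2. In shNEG this order rests on annotated exon of 2983 bases for LDHB and 6026 for LDHA, since mean normalised reads were 34333 and 35163. PDK1, a kinase that switches off pyruvate dehydrogenase, had 1558, 1619 and 1533 normalised reads in shNEG and 2003, 2200.2 and 2112 in shSPINK2, 34.1% higher (log2 fold change 0.42, SE 0.05, adjusted p = 5.5e-09), whereas its relative PDK3 had 665 ± 7.1 in shNEG and 675 ± 10 in shSPINK2 (adjusted p = 0.771).

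**Figure D3:**
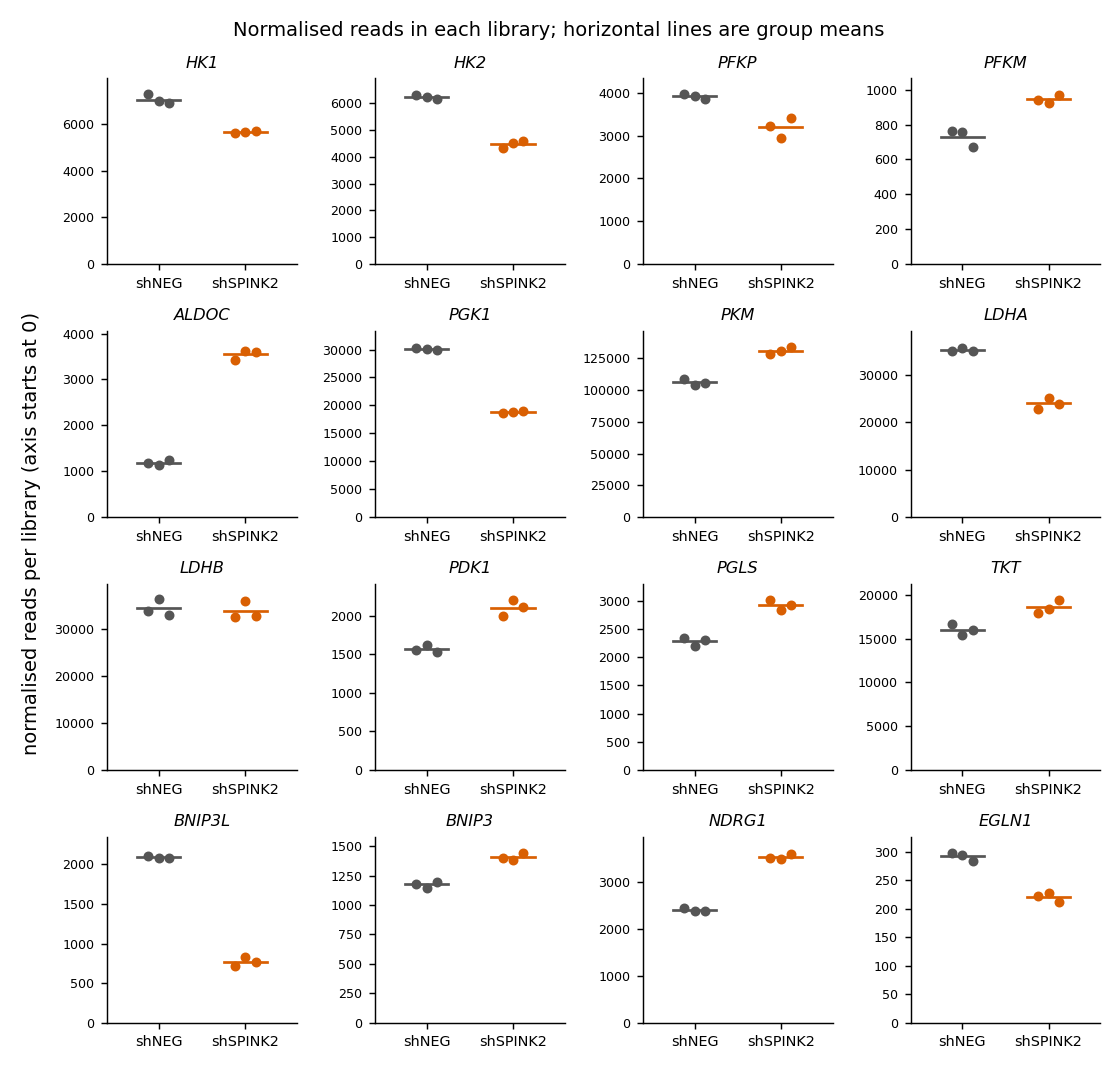
Normalised reads in each library (points, y axis from 0) for 16 members, shNEG in grey and shSPINK2 in orange, with the group mean as a line. The libraries of the groups do not overlap for HK2, PGK1, LDHA, ALDOC and BNIP3L, and overlap for LDHB.

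Summed over the 21 glycolysis genes, 16873, 16308 and 16286 RPM (reads scaled to a library total of 1000000) fell on them in shNEG and 16352, 16135 and 16627 in shSPINK2, which overlap. The steps on hexoses took 1537, 1496 and 1481 RPM in shNEG and 1360, 1312 and 1353 in shSPINK2, and the genes of pyruvate fate 1864, 1968 and 1852 and 1555, 1660 and 1532, both lower in every shSPINK2 library. The sum for pyruvate fate was mostly LDHA and LDHB, of which LDHA was lower and LDHB not called, while PDK1 was higher. The genes between these stretches took 13473, 12844 and 12954 in shNEG and 13436, 13163 and 13742 in shSPINK2. Within them the mean of PKM and of ENO1 was higher in shSPINK2 and that of PGK1 lower, while GAPDH, which was not called, had 155063 ± 8609 in shNEG and 144200.0 ± 9012 in shSPINK2 normalised reads (SD, n = 3 and 3).

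Levels between genes can be compared only per length, and are given here as RPKM, that is RPM per 1000 bases of annotated exon, as means over 3 libraries. This length joins the exons of every annotated transcript of a gene and can exceed that of the transcripts made. The order of genes by RPKM depends on it, and other lengths were not tried. GAPDH led with 1710 in shNEG and 1580 in shSPINK2, followed in shNEG by ENO1 (505), TPI1 (386), ALDOA (381), PKM (327) and LDHB (304), of which TPI1 and ALDOA lay within the spread of each other. In shSPINK2 PKM stood at 400 RPKM, ALDOA at 384 and TPI1 at 373. The place of PKM below both in shNEG rests on annotated exon of 8572 bases, against 3829 for ALDOA and 2700 for TPI1. In normalised reads PKM was above both already in shNEG, at 106051 against 55179 and 39436. The 3 phosphofructokinases kept the order PFKL, PFKP, PFKM, from 21.7, 13.3 and 2.66 in shNEG to 22.3, 10.8 and 3.42 in shSPINK2. ALDOC moved from 12 to 35.6 RPKM, still far below ALDOA. BNIP3L was above BNIP3 in shNEG (13.3 against 7.66) and below it in shSPINK2 (4.85 against 9.13). This order in shNEG rests on similar annotated exon lengths of 4149 and 4050 bases. The 3′ UTRs of their canonical transcripts differ more, at 2715 and 840 bases, so which of them was higher in shNEG is not settled. Among the HIF genes P4HA1 (16.2) and HIF1A (15.3) were highest in shNEG, and ANKRD37 at 0.398, ADM at 0.0415 and EGLN3 at 0.00119 lowest.

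**Figure D4:**
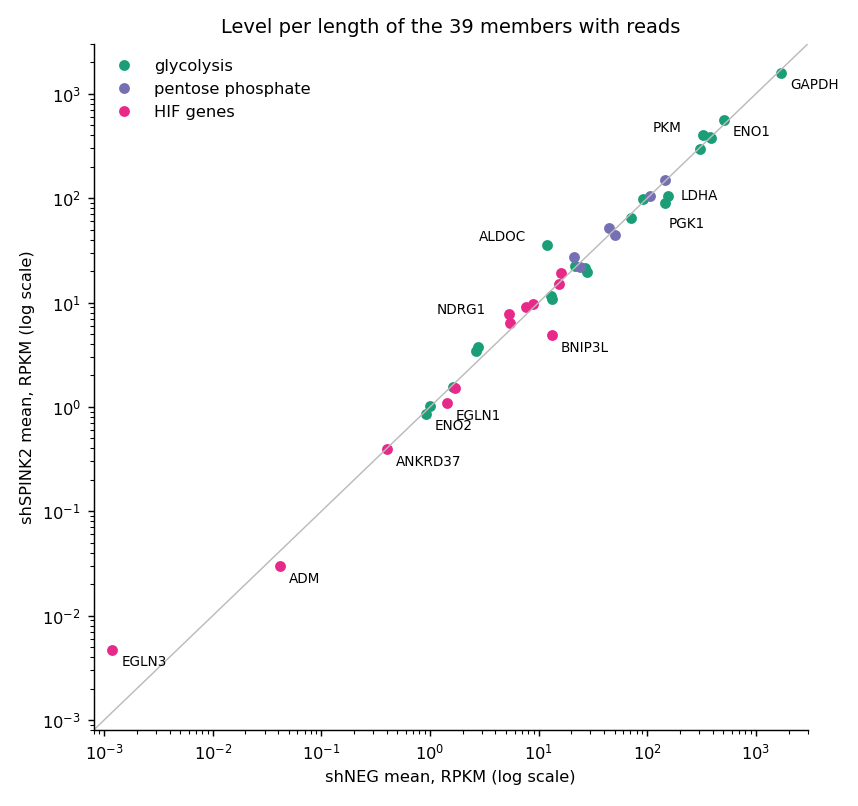
RPKM of the 39 members with reads, mean of 3 shNEG libraries (x axis) against mean of 3 shSPINK2 libraries (y axis), both on log scales, with the line of equality. Glycolysis genes (green) reach from 0.914 for ENO2 to 1710 for GAPDH in shNEG, and ALDOC lies above and BNIP3L below the line.

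Of the pentose phosphate genes, PGLS and TKT were higher and RPIA and RPE lower in shSPINK2. PGLS, the lactonase of the oxidative part, had 2344, 2199 and 2303 normalised reads in shNEG and 3013, 2846 and 2935 in shSPINK2, 28.5% higher (log2 fold change 0.36, SE 0.05, adjusted p = 3.15e-08), and PGD, the dehydrogenase that follows it and yields NADPH, did not separate the groups (13560.1 ± 182 in shNEG and 13496 ± 110.2 in shSPINK2, SD, n = 3 and 3, adjusted p = 0.902). TKT, transketolase, which links the pathway back to glycolysis, had 16615, 15407 and 15997 in shNEG and 17976, 18419 and 19448 in shSPINK2, 16.3% higher (log2 fold change 0.22, SE 0.05, adjusted p = 0.000116). The libraries of PGLS and of TKT did not overlap between groups. TALDO1, transaldolase, had 16658, 15824 and 15394 in shNEG and 15619, 14890.4 and 18750.4 in shSPINK2, where library c stood above the other two, and was not called (adjusted p = 0.623). The enzymes that interconvert pentose phosphates were both lower. RPIA, the isomerase, fell by 11.9% (log2 fold change -0.18, SE 0.04, adjusted p = 0.000723) and RPE, the epimerase, fell by 9.2% (log2 fold change -0.14, SE 0.05, adjusted p = 0.011), the latter not called without shNEG library b.

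HIF1A itself had 3068, 2934 and 2949 normalised reads in shNEG and 2744, 3122 and 2953 in shSPINK2, groups that overlapped, and no difference was called (log2 fold change -0.02, SE 0.05, adjusted p = 0.699). EGLN1, the main oxygen-sensing hydroxylase of HIF (chr1:231363751-231422287, minus strand), had 297, 294 and 284 in shNEG and 223, 228 and 212 in shSPINK2 and fell by 24.3% without overlap (log2 fold change -0.40, SE 0.09, adjusted p = 0.00014). EGLN3, the hydroxylase that HIF induces in many cells, had at most 2 reads in any library and was not tested.

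The HIF targets did not move as a block. BNIP3L (NIX), a mitochondrial receptor for mitophagy, had 2102, 2084 and 2083 normalised reads in shNEG and 713, 826 and 764 in shSPINK2. It fell by 63.3% (log2 fold change -1.45, SE 0.06, adjusted p = 4.1e-21), the largest fall among the members. BNIP3, its close relative with the same role, had 1181, 1145 and 1199 in shNEG and 1399.6, 1386 and 1446 in shSPINK2, 20% higher (log2 fold change 0.26, SE 0.05, adjusted p = 3.81e-05). Both genes separated the groups completely, in opposite directions. NDRG1, a stress-responsive gene linked to differentiation, had 2446, 2379.5 and 2389.7 in shNEG and 3519, 3497 and 3614 in shSPINK2, 47.3% higher (log2 fold change 0.56, SE 0.04, adjusted p = 6.72e-13).

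Smaller rises were called for P4HA1, a collagen prolyl hydroxylase (by 18%, log2 fold change 0.24, SE 0.05, adjusted p = 7.88e-05), and for KDM3A, a histone demethylase (by 17.6%, log2 fold change 0.23, SE 0.05, adjusted p = 5.45e-05), neither with overlapping groups. MXI1, an antagonist of MYC, was 10.5% higher (log2 fold change 0.14, SE 0.05, adjusted p = 0.0214), with overlapping libraries and a call that was lost without shNEG library b or without shSPINK2 library b or c. VEGFA, the angiogenic growth factor, fell by 9.4% (log2 fold change -0.14, SE 0.06, adjusted p = 0.0298), a call that leaving out shNEG library a or b or shSPINK2 library b ended. ANKRD37 was read at 34 ± 2 in shNEG and 33.7 ± 5.2 in shSPINK2 (SD, n = 3 and 3, adjusted p = 0.938). ADM, adrenomedullin, had 1 to 6 reads in shNEG and 2 to 4 in shSPINK2, too few to test. CA9, the carbonic anhydrase often taken as a hypoxia marker, had 0 reads in every library, which allows up to 0.0796 RPM in the shallowest of them (3 reads, counting error only).

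Ratios of related genes within a library do not depend on how libraries are scaled, and 10 pairs were compared. The BNIP3L to BNIP3 ratio of reads was 1.78, 1.82 and 1.74 in shNEG and 0.51, 0.596 and 0.528 in shSPINK2, a change of -1.71 on the log2 scale. For ALDOC to ALDOA it was 0.0205, 0.0209 and 0.0233 in shNEG and 0.061, 0.0649 and 0.0638 in shSPINK2, a change of 1.55, although ALDOC remained the minor aldolase. The LDHB to LDHA ratio went from 0.967, 1.02 and 0.941 to 1.42, 1.43 and 1.37, a change of 0.53. These 3 ratios were apart between the groups in every library. The ratio also shifted for PFKP to PFKM (by -0.67), PDK3 to PDK1 (by -0.40), PFKL to PFKM (by -0.32) and HK2 to HK1 (by -0.16), again with no overlap, whereas those of PFKFB4 to PFKFB3 and ENO2 to ENO1 overlapped. For the pairs apart the 2-sided exact permutation p was 0.1, the smallest that 3 against 3 libraries can give, and 0.125 after adjustment over the 10 pairs, so that none could pass 0.05 in this design. The EGLN3 to EGLN1 ratio rests on at most 2 reads of EGLN3 per library and is not read further.

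**Figure D5:**
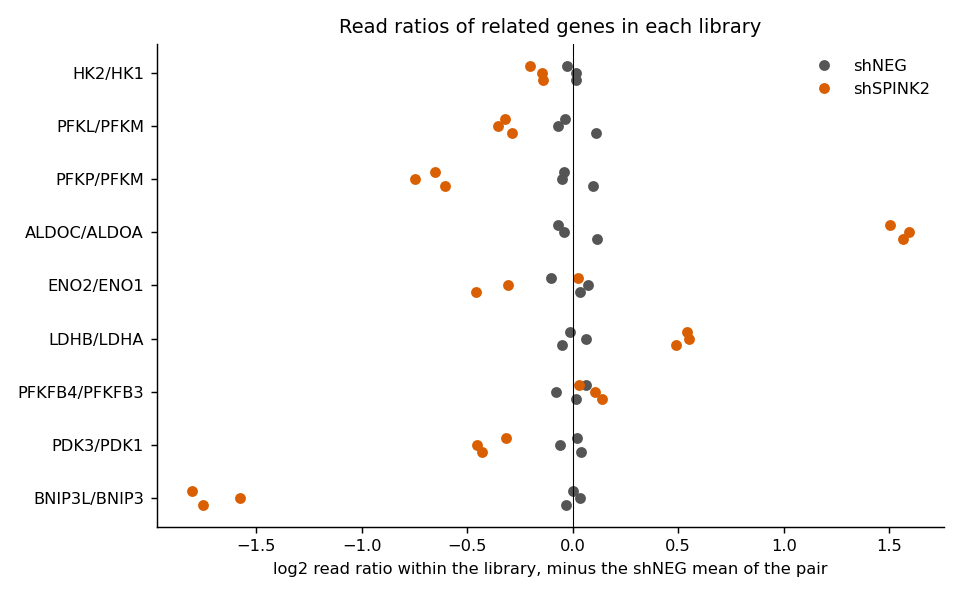
Read ratio of 9 pairs of related genes within each library (points), on a log2 scale relative to the mean of the shNEG libraries of that pair (x axis). BNIP3L/BNIP3 and ALDOC/ALDOA are displaced by -1.71 and 1.55, and the groups overlap for ENO2/ENO1 and PFKFB4/PFKFB3.

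Other genes of these pathways also moved in both directions, beside 28.8% higher and 29.8% lower, together 58.6%, of all genes tested. Of 44 further genes of glycolysis and hexose use, 33 were tested, with 10 higher and 14 lower in shSPINK2, together 72.7%. PFKFB2, another bifunctional regulator of phosphofructokinase, was higher (log2 fold change 0.67, SE 0.06, adjusted p = 2.86e-11), and PGAM5, a mitochondrial phosphatase despite its name, lower (log2 fold change -0.47, SE 0.04, adjusted p = 3.95e-11). Of 7 further pentose phosphate and ribose genes, 6 were tested, with 2 higher and 3 lower, together 83.3%. RBKS, ribokinase, was 2.81-fold higher (log2 fold change 1.48, SE 0.12, adjusted p = 3.88e-12) and H6PD, the endoplasmic reticulum enzyme that makes NADPH from glucose phosphate, 46.8% higher (adjusted p = 2.27e-11), while PRPS1, which turns ribose phosphate into the nucleotide precursor PRPP, fell by 33% (log2 fold change -0.58, SE 0.04, adjusted p = 5.1e-13).

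In the HIF system, 1 of 9 further genes tested was higher and 3 were lower, together 44.4% against 58.6% of all genes tested, among them ARNT, the partner subunit of HIF1A, which fell by 26.1% (log2 fold change -0.44, SE 0.04, adjusted p = 2.16e-10). Of 28 further genes known as HIF targets, 23 were tested, with 10 higher and 5 lower, together 65.2%, and log2 fold changes centred on 0.12. DDIT4 (REDD1), a stress-induced inhibitor of mTORC1, had 415, 394 and 393 normalised reads in shNEG and 908, 796 and 911 in shSPINK2 (log2 fold change 1.12, SE 0.07, adjusted p = 5.74e-16). ERO1A, an oxidase of the endoplasmic reticulum, had 3219.9, 3269.9 and 3227 in shNEG and 1539.9, 1719.8 and 1593 in shSPINK2 (log2 fold change -1.003, SE 0.05, adjusted p = 1.68e-18). ZNF395 was also lower (log2 fold change -0.55, SE 0.05, adjusted p = 5.62e-12) and PPFIA4 higher (log2 fold change 0.55, SE 0.08, adjusted p = 6.69e-07).

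Several glycolysis genes have processed pseudogenes whose reads could be exchanged with those of the parent gene in counting. Pseudogenes named after GAPDH took 0.246% as many normalised reads as GAPDH itself, those of LDHA 0.313%, of TPI1 0.76% and of PGAM1 0.222%, and those of BNIP3 7.51%. The pseudogene of EGLN3 took 120% as many as its parent, of which at most 2 reads were seen in any library. The values of EGLN3 and BNIP3 are uncertain in this respect. For the other genes low shares do not settle the matter, since only reads assigned to a pseudogene are seen here. How reads that fit parent and pseudogene equally well were treated is not known.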

How the data were processed

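RNA of 3 shNEG and 3 shSPINK2 libraries of FUJIOKA cells was sequenced. The authors ran FastQC, aligned to GRCh38 (STAR 2.7.11 and hg38 in the submitters' processing notes), obtained counts by gene from featureCounts and used DESeq2 (1.40.0 in those notes) for the comparison. The annotation release and strandedness are not given in the sources used here. The deposited table holds, per gene, a signal, the authors' mean over 6 libraries of counts divided by size factors, and columns of the authors' comparison (log2 fold change, standard error, statistic, p-values).

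Values of single libraries are not among them, so whole reads were recovered. The deposited signal of genes with 1 read in 1 library (at least 546 genes each) fixed the size factors, and their group came from the direction of the authors' log2 fold change. Reads per library were taken as the whole numbers that return the mean of a gene, its fold change and standard error. Those columns served only for this decoding and are not reported, and the values below are therefore not independent of them. One solution was found for 32180 of 32220 genes with reads. A further 38, GAPDH, PKM and ENO1 among them, were settled by rebuilding the DESeq2 (1.42.0) standard error, a step chosen after seeing the data, and 2 (EEF1A1 and MT-ND4, 1.09% of the summed means) were left out.

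Fitted values are from limma 3.58.1 in R 4.3.3 (trend, empirical Bayes, 2-sided) on log2(normalised reads + 1), for 16129 genes with a mean of at least 10, with Benjamini-Hochberg adjustment over all of them and a threshold of 0.05. Fold changes on this scale understate low genes. Mean ± SD is over 3 libraries. Alternatives were edgeR 4.0.16, other pseudocounts, filters and scalings, and leaving out each library. Recovery and test were run on simulated data. GENCODE 44, also on GRCh38, matched 98.8% of IDs with reads. Members and lists were chosen with earlier results of these data known. All members are named, and of the other pathway genes up to 5 per direction with the largest change among those called with a mean of at least 50.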

Additional observations from a re-analysis of the deposited data

How the results depend on the processing

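At an adjusted p under 0.05, direction and call stayed for 18 of 25 called members under each alternative of filter, pseudocount, scaling, tool and left-out library that tested them, and no called member changed direction. An adjusted p under 0.01 left 19 members, 10 in glycolysis, 3 in the pentose phosphate pathway and 6 among the HIF genes. Asking also for an absolute log2 fold change over 1 left 739 of all genes tested and 2 members, of which 1 in glycolysis, 0 in the pentose phosphate pathway and 1 among the HIF genes. With upper-quartile scaling, which moved the median of all genes to 0.061 and the share of higher genes among those called from 49.2% to 57.6%, the median of glycolysis was 0.021 and that of the HIF genes 0.118, PFKL was called (0.109, adjusted p = 0.0198), the calls of GPI, PFKFB3, RPE and VEGFA were lost, and the uncalled PFKFB4 (0.003), TPI1 (0.021), LDHB (0.030), PGD (0.052), HIF1A (0.036) and ANKRD37 (0.036) turned positive. A mean of at least 50 gave 0.141 for the HIF genes, with ANKRD37 no longer tested, and without a filter on the mean GPI, PGAM1 and MXI1 were not called. PGD was 0.002 with edgeR's quasi-likelihood test and TMM and 0.002 with TMM scaling in limma. Without the 38 genes settled by the standard error, an alternative chosen after seeing the data, 9432 genes were called.

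Leaving out each library in turn gave 8559 to 9205 genes called of all tested, 19 to 25 members, 10 to 13 glycolysis genes, 3 to 4 pentose phosphate genes and 6 to 8 HIF genes, with medians of -0.05 to -0.007, -0.039 to 0.048 and 0.037 to 0.115. Among uncalled genes, the log2 fold change then crossed 0 for LDHB (-0.077 to 0.011), PGD (-0.017 to 0.003), TALDO1 (-0.065 to 0.102), HIF1A (-0.068 to 0.025) and ANKRD37 (-0.103 to 0.109). The cause of these changes was not tested. No paired analysis was possible because the recovered libraries carry no replicate number. At the depth of these libraries, EGLN3, ADM and CA9 stayed too low to compare.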
